A study of Mus musculus with 11 samples.

Results

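A set of 9 genes of MHC class I antigen presentation was followed through the colon macrophage libraries: B2m, H2-K1, H2-D1, H2-T23, Tap1, Tap2, Tapbp, Nlrc5 and Erap1. They were chosen by gene symbol, all 9 were found among the 23282 rows of the count files, and 8 of them were among the 6987 genes with enough counts to test. Erap1 had 0 counts in all 11 libraries and was not tested. Macrophages were sorted from mouse colon as CD45+CD11b+Ly6G-Ly6C-MHCII+CD64+ cells, and the protocol gives the mice 2.5% dextran sodium sulphate (DSS), an agent that injures the colon lining, in their water for 5 days. The first strain, labelled Csf1r-EP4-/- and called KO here, is named for Csf1r, a macrophage growth factor receptor gene, and EP4, the prostaglandin E2 receptor encoded by Ptger4; the labels do not spell out the Cre allele or the age of the mice. The other strain was wild type (WT). The groups were KO at day 0 (3 libraries), WT at day 0 (2), KO at day 39 (3) and WT at day 39 (3), and it is not stated whether the day 0 mice had received DSS. The labels do not say that libraries of a group came from separate mice, so p-values measure only the spread between these libraries.

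MHC class I molecules display peptides from inside the cell to CD8 T cells and to receptors of natural killer cells. A polymorphic heavy chain pairs with the invariant light chain beta-2 microglobulin in the endoplasmic reticulum, where the TAP transporter brings in peptides from the proteasome, tapasin helps load them and an aminopeptidase trims them to length. Interferons raise many genes of the pathway, and NLRC5 is a transactivator of class I genes that acts through a conserved set of promoter boxes.

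Total counts were between 4003299 and 14207919 per library, and 3818 to 7450 rows per library had a count. Many genes were read in some libraries and not in others: 10515 rows (45.2%) were at 0 in every library, and 348 of the 6987 tested genes (4.98%) had over 10 counts in all 11. Ptger4, the gene named in the strain, did not follow the labels throughout. It had 1350, 0 and 890 counts in the 3 KO day 0 libraries, 0 in both WT day 0 libraries, 1, 8 and 4501 in the KO day 39 libraries, and 1481, 152 and 7286 in the WT day 39 libraries. The libraries labelled KO replicates 1 and 3 at day 0 and KO replicate 3 at day 39 therefore held Ptger4 reads, and whether these lie outside a deleted part of the gene is not known here. Among macrophage markers, Csf1r had at least 1329 counts, C1qa at least 2605 and H2-Ab1 at least 12803 in every library, while Fcgr1 (CD64) had over 10 counts in 5 libraries, Ptprc (CD45) in 6 and Mertk in none. Summed CPM of the 14 macrophage markers was 6330 to 27900 for KO at day 0, 17600 to 18100 for WT at day 0, 9480 to 15800 for KO at day 39 and 12200 to 17900 for WT at day 39. The 20 epithelial markers summed to 75.0 to 1340, 969 to 1930, 4890 to 13200 and 2610 to 8470 CPM in the same order, the 7 stromal markers to 4350 to 20700, 3030 to 15200, 5550 to 10600 and 5350 to 9700, and the 8 skeletal muscle markers to 2380 to 22600, 2180 to 7590, 3010 to 3960 and 4320 to 14200. Of the 12 T and NK cell markers 8 were at 0 in all libraries, Cd3e, Cd3g and Cd8a among them, while Cd4 had over 10 counts in 5 libraries (up to 2328) and Nkg7 had 1634 in 1 library. The 12 summed to 0 to 313 CPM for KO at day 0, 0.236 to 416 for WT at day 0, 0 to 1.55 for KO at day 39 and 1.52 to 313 for WT at day 39. Class I genes are read in nearly all nucleated cells, so these values bear on every member, and their part in the results was not tested. In bulk libraries, fewer cells of a type and less RNA per cell cannot be told apart.

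The promoters of the members are shown first because class I genes are known for shared upstream boxes. RefSeq windows of the 250 bases before the start were at hand for 7 members, in 8 windows (2 for H2-K1), on build GRCm38.p6. Each of 4 motifs was searched on both strands: AANNGAAA, the core of the interferon-stimulated response element; GGGANNCCC, a form of the kappa-B site; TGACG, a partial site of the X box region; and CCAAT, the box of NF-Y. Over all 32851 windows of that length, 21.3% held AANNGAAA, 4.76% (1564 windows) held GGGANNCCC, 17.8% held TGACG and 33.8% held CCAAT. The stretches printed here, with each match in capitals, are those of the 3 most abundant members and of Tap1, whose counts came and went between libraries; they lie at chr2:122147535-122147648 (plus strand) for B2m, chr17:34000349-34000488 (minus strand) for H2-K1, chr17:35262893-35263055 (plus strand) for H2-D1 and chr17:34187319-34187484 (plus strand) for Tap1, all upstream of the RefSeq start.
B2m: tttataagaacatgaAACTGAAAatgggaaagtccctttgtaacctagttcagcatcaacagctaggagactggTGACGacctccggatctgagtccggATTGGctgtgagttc
H2-K1: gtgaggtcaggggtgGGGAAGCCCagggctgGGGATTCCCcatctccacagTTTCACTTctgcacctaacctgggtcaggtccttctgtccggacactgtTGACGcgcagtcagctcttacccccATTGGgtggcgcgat
H2-D1: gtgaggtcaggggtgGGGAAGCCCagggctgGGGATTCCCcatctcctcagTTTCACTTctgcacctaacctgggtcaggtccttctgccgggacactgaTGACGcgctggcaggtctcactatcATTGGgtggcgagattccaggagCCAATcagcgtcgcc
Tap1: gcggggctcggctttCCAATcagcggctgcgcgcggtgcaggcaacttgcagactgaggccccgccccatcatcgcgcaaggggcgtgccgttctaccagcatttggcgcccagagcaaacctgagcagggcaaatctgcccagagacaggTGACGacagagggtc
The 3 heavy chain windows (2 of H2-K1, of which the first is printed, and 1 of H2-D1) held all 4 motifs in the same order, with GGGANNCCC at 2 places (the second read on both strands, so that its matches overlap) upstream of the reverse complement of the interferon core. CCAAT was at 1 further place in the second H2-K1 window and in that of H2-D1. The B2m window held AANNGAAA, TGACG and CCAAT, and the Tap1 window TGACG and CCAAT. Not printed here, the H2-T23 window held AANNGAAA at 2 places and CCAAT once, the Tapbp window held CCAAT at 2 places, and none of these letters occurred in the Erap1 window. A match is a string of letters and was not tested as a binding site. The letters were changed after the windows were seen, so the matches and shares are description only. A window without a match may still hold a site of that kind in other letters.

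B2m, the light chain shared by all class I molecules, was the member with the most reads. It ranked 15 of 23282 rows by mean CPM (counts scaled to a common library size, the TMM-scaled library sum of the tested genes). Its CPM was 3464, 4642 and 2814 for KO at day 0, 2365 and 2822 for WT at day 0, 1104, 2888 and 1795 for KO at day 39, and 3103, 1493 and 2354 for WT at day 39. Groups overlapped in each of the 4 pairwise comparisons, the highest library was KO day 0 replicate 2 and the lowest KO day 39 replicate 1. Group means were 3640 ± 927 (SD, n = 3) for KO at day 0, 2594 ± 323 (n = 2) for WT at day 0, 1929 ± 900 (n = 3) for KO at day 39 and 2316 ± 806 (n = 3) for WT at day 39. The KO minus WT log2 difference was 0.49 (SE 0.85) at day 0, with an edgeR Benjamini-Hochberg adjusted p of 0.874, and upper-quartile scaling turned its sign (-1.39). At day 39 it was -0.26 (SE 0.75, edgeR adjusted p = 1). On the fold scale the 95% intervals ran from 0.439 to 4.48 at day 0 and from 0.299 to 2.32 at day 39. The largest pairwise difference of B2m was between the days in KO, at -0.92 (SE 0.76, edgeR adjusted p = 0.530), where the day 39 mean was 0.53 times the day 0 mean. Over both labels, mean CPM was 0.659 times as high at day 39 (6 libraries) as at day 0 (5 libraries). An exact two-sided permutation test of the difference in mean log2 of CPM plus 1 (-0.65 for B2m) gave p = 0.0649 for B2m. It ran over the 462 arrangements of the libraries without regard to genotype label, was unadjusted and was added after the values were seen. The test was run for the 8 tested members, and the p was 0.0693 for Tap2, 0.158 for Tapbp and 0.455 to 0.877 for the other 5.

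H2-K1 and H2-D1 encode the classical heavy chains K and D, which present peptides to CD8 T cells. H2-K1 ranked 23 and H2-D1 ranked 38 by mean CPM, and their lowest counts in any library were 5237 and 1897. H2-K1 CPM was 3291, 804 and 1136 for KO at day 0, 1856 and 4423 for WT at day 0, 1496, 2313 and 3870 for KO at day 39, and 1590, 1359 and 2275 for WT at day 39. The range inside either day 0 group was wider than any difference between group means, with means of 1744 ± 1350 (SD, n = 3) and 3139 ± 1815 (n = 2), against 2560 ± 1206 and 1741 ± 476 (n = 3 each) in KO and WT at day 39. H2-K1 was not called between KO and WT at day 0 (log2 difference -0.85, SE 0.90, edgeR adjusted p = 0.659) or at day 39 (0.56, SE 0.82, edgeR adjusted p = 0.922). The difference between those differences was 1.40 (SE 1.21), with an edgeR adjusted p of 0.600. Leaving out 1 library at a time moved it between 0.392 (without WT day 0 replicate 2) and 2.25 (without KO day 0 replicate 1), and moved the day 0 difference between 0.0488 and -1.70 without the same libraries, so the sign at day 0 rests on WT day 0 replicate 2. H2-D1 CPM was 2882, 1079 and 1171 for KO at day 0, 1986 and 1758 for WT at day 0, 2235, 1406 and 1483 for KO at day 39, and 576, 957 and 2526 for WT at day 39. WT day 39 held both the lowest value of H2-D1 and its second highest, and all 4 groups overlapped. The KO minus WT log2 difference of H2-D1 was -0.13 (SE 1.04) at day 0 and 0.34 (SE 0.93) at day 39, each with an edgeR adjusted p of 1, and at day 39 the fold interval ran from 0.356 to 4.48.

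**Figure D1:**
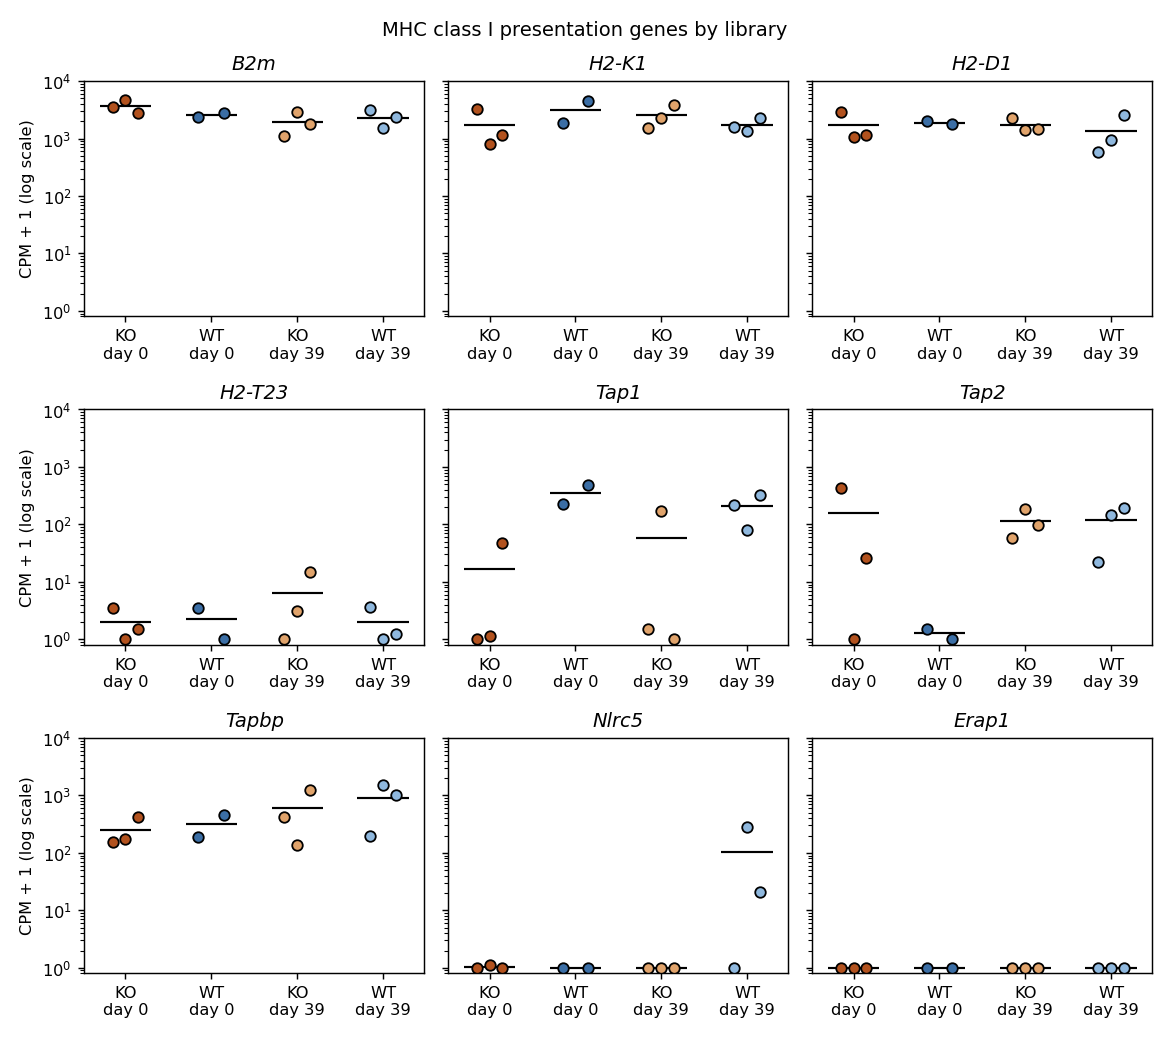
CPM plus 1 on a log axis for each of the 9 genes, 1 point per library, with the mean of each group as a line. B2m, H2-K1, H2-D1 and Tapbp are read in all 11 libraries, Tap1 and Tap2 fall to 0 or near it in some, Nlrc5 stands above the floor in 2 WT day 39 libraries and Erap1 lies at 0.

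The chains of a class I molecule did not keep a fixed ratio between libraries. H2-K1 counts divided by H2-D1 counts were 1.14, 0.746 and 0.97 for KO at day 0, 0.935 and 2.52 for WT at day 0, 0.669, 1.65 and 2.61 for KO at day 39, and 2.76, 1.42 and 0.901 for WT at day 39. The ratio was above 1 in 6 libraries and below it in 5, on both sides within each of the 4 groups. H2-K1 and H2-D1 together, divided by B2m, gave 1.78, 0.406 and 0.82 for KO at day 0, 1.62 and 2.19 for WT at day 0, 3.38, 1.29 and 2.98 for KO at day 39, and 0.698, 1.55 and 2.04 for WT at day 39. These are ratios of 3′ tag counts, which do not scale with transcript length. Over the 11 libraries Spearman's rho of CPM was 0.509 between H2-K1 and H2-D1, 0.00909 between B2m and H2-K1 and -0.182 between B2m and H2-D1, given as a description because the libraries share groups and differ in depth.

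**Figure D2:**
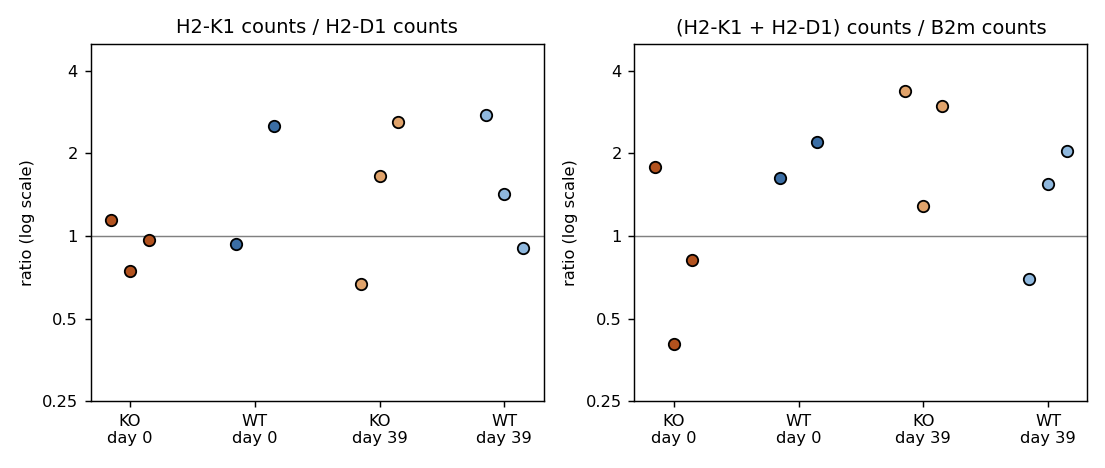
Ratios of counts within each library on a log axis, H2-K1 to H2-D1 at left and their sum to B2m at right, 1 point per library and a line at 1. The left ratio spans 0.669 to 2.76 and the right 0.406 to 3.38, with every group overlapping at least 1 other.

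Other heavy chain rows were mostly empty. H2-T23, the gene of the nonclassical molecule Qa-1, had 16, 0 and 8 counts for KO at day 0, 14 and 0 for WT at day 0, 0, 11 and 49 for KO at day 39, and 9, 0 and 1 for WT at day 39. In all, 4 libraries were above 10 counts, and no group held values all above or all below another. The relative H2-M2, a class I gene of the M region, reached 17892 counts in KO day 0 replicate 3 and 8179 in replicate 1, but 1 count in replicate 2. Its 3 WT day 39 libraries had 2844, 2041 and 2583 counts, and its KO day 39 libraries 0, 385 and 10, for a log2 difference of -4.51 (SE 2.22, edgeR adjusted p = 0.491). H2-Q9 had 1533 and 2563 counts in KO day 0 replicates 2 and 3 and at most 1 elsewhere, and H2-Q2, H2-Q6, H2-Q7, H2-M5 and H2-L were at 0 in all libraries. H2-T9 and H2-T22 had nearly the same counts in every library, with 1660 each in KO day 0 replicate 3, so reads of these rows are uncertain. H2-K1 and H2-D1 made up 59.5% to 100% of the summed heavy chain counts. Because heavy chain genes are close copies, the share of 50-base windows within the last 500 bases that occur in another gene's transcript was counted in GENCODE M21 transcripts. It was 0.443% to 22.4% for H2-K1, 6.44% to 9.65% for H2-D1, 38.1% for H2-T23 and 0% for B2m. The other genes were not all heavy chains. They included Rab33b, Hook2 and Vamp3 for H2-T23, and Adsl and Kcnk4 for H2-D1. The share is therefore not a measure of reads passing between heavy chains. With all listed heavy chains summed into 1 row, the KO minus WT log2 difference was -0.18 (SE 0.67, edgeR adjusted p = 0.994) at day 0 and 0.25 (SE 0.60, edgeR adjusted p = 1) at day 39.

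Tap1 and Tap2 encode the subunits of the TAP transporter, which moves peptides into the endoplasmic reticulum. Tap1 had 0, 1 and 706 counts for KO at day 0, 1251 and 2091 for WT at day 0, 2, 867 and 0 for KO at day 39, and 723, 428 and 1472 for WT at day 39. It was above 10 counts in 5 of 5 WT libraries and in 2 of 6 KO libraries. Over 10 counts in all WT libraries and in at most 2 KO libraries, a pattern singled out after the values were seen, held for 16 of the 6987 tested genes (0.229%). No rarity is read from that share. Only genes over 10 counts in 5, 6 or 7 libraries (673, 541 and 394 of those tested) can show the pattern, and its mirror was not counted. At day 0 every KO library lay below both WT libraries, as for 367 tested genes (5.25%), while 470 lay the other way. Mean CPM of Tap1 was 23.2 times as high in WT at day 0, where the KO mean rests on replicate 3 (706 counts). At day 39 the groups overlapped. The test called neither: the KO minus WT log2 difference was -4.53 (SE 3.80, edgeR adjusted p = 0.513) at day 0 and -1.85 (SE 3.28, edgeR adjusted p = 0.977) at day 39. Without KO day 0 replicate 3 the day 0 difference was -12.1 (SE 5.91, edgeR adjusted p = 0.414), a fitted value from counts of 0 and 1 in KO. Leaving out 1 library at a time moved the day 39 difference between -9.51 (without KO day 39 replicate 2, the KO library of that day with 867 counts) and -1.27. Of the KO libraries with Tap1 reads, day 0 replicate 3 also held Ptger4 reads (890) and day 39 replicate 2 had 8 Ptger4 counts, while KO day 0 replicate 1 and KO day 39 replicate 3 had 1350 and 4501 Ptger4 counts and 0 Tap1 counts.

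Tap2 followed another pattern. It had 2724, 0 and 382 counts for KO at day 0, 3 and 0 for WT at day 0, 221, 939 and 337 for KO at day 39, and 69, 799 and 888 for WT at day 39. All 6 day 39 libraries and 2 of 5 day 0 libraries were above 10 counts. Over 10 counts in all day 39 libraries and in at most 2 day 0 libraries, likewise singled out after the values were seen, held for 81 tested genes (1.16%). Here too no rarity is read from the share. Only genes over 10 counts in 6, 7 or 8 libraries (541, 394 and 282 of those tested) can show it. In WT every day 39 library lay above both day 0 libraries, as for 884 tested genes (12.7%), while 330 lay the other way. The day 39 mean of Tap2 in WT was at least 194-fold higher, taking day 0 at the floor of 3 counts per library. The log2 difference was 8.69 (SE 5.80, edgeR adjusted p = 0.424) in WT and -0.45 (SE 3.44, edgeR adjusted p = 1) in KO, and the difference between these was not called (-9.13, SE 6.38, edgeR adjusted p = 0.486). At day 0 the KO mean was at least 248-fold higher than the WT floor, a value carried mainly by replicate 1 (2724 counts), for a log2 difference of 9.04 (SE 5.89, edgeR adjusted p = 0.390). Without KO day 0 replicate 1 it was 5.41 (SE 5.29, edgeR adjusted p = 0.624). Replicates 1 and 3 are the KO day 0 libraries with Ptger4 reads. Without the KO libraries that held them, KO day 0 was 1 library with 0 Tap2 counts, against 3 and 0 counts in WT day 0, so no direction is read from that refit. No other member had groups without overlap in a pairwise comparison. Counting both directions, 7.4% of tested genes had no overlap for KO against WT at day 39 and 11.3% between the days in KO. Both genes were above 10 counts in 5 libraries, Tap1 alone in 2, Tap2 alone in 3 and neither in 1, which was KO day 0 replicate 2.

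**Figure D3:**
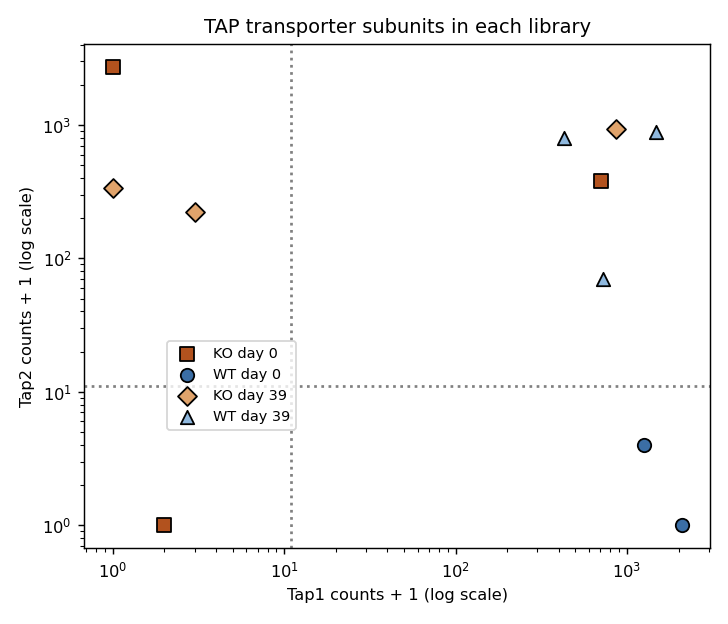
Tap1 against Tap2 counts plus 1, both on log axes, 1 symbol per library by group, with dotted lines at 10 counts. WT day 0 has Tap1 without Tap2, 3 KO libraries have Tap2 without Tap1, and WT day 39 has both.

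Tapbp, the gene of tapasin, which bridges TAP and the heavy chain, was read in every library. Its CPM was 154, 175 and 413 for KO at day 0, 186 and 455 for WT at day 0, 428, 138 and 1236 for KO at day 39, and 197, 1496 and 1021 for WT at day 39. The 3 highest values were all from day 39, but each day 39 group also had a library within the day 0 range. Mean CPM was 2.72 times as high at day 39 as at day 0, with a log2 difference averaged over the labels of 1.39 (SE 1.28, edgeR adjusted p = 0.591) and an exact permutation p of 0.158 (unadjusted). Summed epithelial markers were also higher in all 6 day 39 libraries (2610 to 13200 CPM) than in all 5 day 0 libraries (75.0 to 1930 CPM), and their part in the day values of Tapbp, Tap2 and B2m was not tested. Tapbp overlaps Zbtb22 on the same strand in GENCODE M21, and Zbtb22 had 532, 1021 and 1686 counts in KO day 0 replicate 3, KO day 39 replicate 3 and WT day 39 replicate 3, and at most 2 elsewhere. The share of reads passing between these genes was not tested. Tap1 overlaps the immunoproteasome gene Psmb9 on the opposite strand, and the strand setting of the counting is not given in the sources used here.

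**Figure D4:**
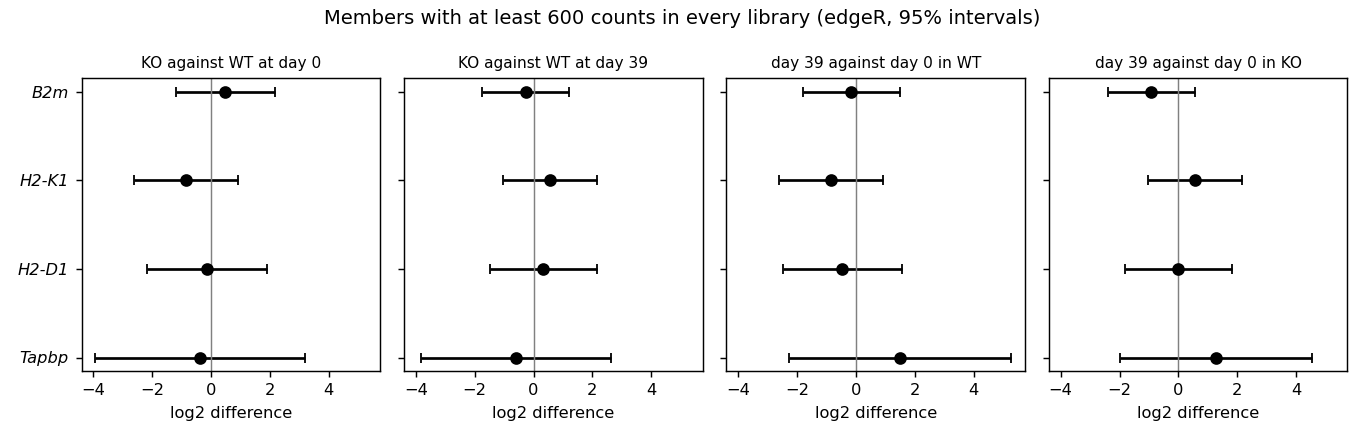
Log2 differences with 95% intervals from edgeR for B2m, H2-K1, H2-D1 and Tapbp in the 4 pairwise comparisons, with a line at 0; the first group named minus the second. Every interval crosses 0, and those of Tapbp are the widest.

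Nlrc5, the class I transactivator, had over 10 counts in 2 libraries. It had 1541 counts in WT day 39 replicate 2, 91 in replicate 3 and 0 in replicate 1, 1 count in KO day 0 replicate 2, and 0 in the other libraries. The mean of 101 ± 158 CPM (SD, n = 3) in WT day 39 thus rests on 1 library. Taking KO day 39 at the floor, its level was at least 136-fold lower, and the fitted KO minus WT log2 difference at day 39 was -12.22 (SE 5.86), with an unadjusted edgeR p of 0.0370 and an adjusted p of 0.491. An unadjusted p under 0.05 in that comparison was reached by 509 genes (7.28%). Erap1, the trimming aminopeptidase of the endoplasmic reticulum, was at 0 throughout; its neighbour Cast, which overlaps it on the opposite strand, had up to 1647 counts. At 3 counts per library, the floor lay between 0.196 and 0.911 CPM, so lower levels of Erap1 were not detectable at this depth. Floors cover counting error only.

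In edgeR, 0 of 8 tested members passed an adjusted p of 0.05 in any of the 6 comparisons. Over all tested genes the share called was 0.0143% for KO against WT at day 0, 0.0286% at day 39, 0.0143% for day 39 against day 0 in WT, 0.157% in KO, 0.301% for the mean of both labels and 0.0% for the interaction. At an unadjusted p under 0.05 the member count was 1 (Nlrc5 at day 39) against 7.99%, 7.28%, 6.68%, 18.2%, 19.2% and 14.4% of all tested genes in the same order. DESeq2 called Tap2 at day 0 (8.79, DESeq2 adjusted p = 0.0100), Nlrc5 at day 39 (-11.3, DESeq2 adjusted p = 0.0366), and Tap2 (8.44, adjusted p = 0.0140) and Nlrc5 (11.2, adjusted p = 0.0402) between the days in WT. It called 17.8%, 7.94% and 16.9% of all genes in those comparisons. It called 0 members in the other 3, where it called 16.4%, 17.4% and 13.4% of all genes (days in KO, mean of both labels, interaction), and limma-voom called 0 members in each, beside 2.38%, 0.458%, 2.35%, 2.76%, 2.75% and 0.186% of all tested genes in the order given for edgeR. The median log2 difference of the 8 members was -0.21 for KO against WT at day 0 beside 1.08 over all tested genes, and -0.18 beside 0 at day 39. Between the days it was -0.26 beside 1.64 in WT and 0.28 beside 0 in KO. These are counts and medians and were not tested as a group. The medians compare genes of unlike detection. B2m, H2-K1, H2-D1 and Tapbp had over 10 counts in all 11 libraries, as did 4.98% of tested genes.

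Of the 100 further genes of class I presentation in 9 lists, 97 were listed and 71 tested, and 0 of 426 tests passed. At an unadjusted p under 0.05 there were 5, 4, 1, 9, 9 and 9 of 71 in the 6 comparisons, in the order given above. Chaperones that fold heavy chains were read in every library: Hspa5 (BiP) had 2410 to 13516 counts and Calr (calreticulin) 1521 to 8321 over the 11 libraries. The immunoproteasome subunit Psmb10 had 1, 0 and 0 counts for KO at day 0 and 2352, 7 and 5087 for KO at day 39; its log2 difference between the days in KO was 13.30 (SE 4.20, edgeR adjusted p = 0.274). WT had 9 and 753 counts of Psmb10 at day 0 and 13, 194 and 1595 at day 39, for a difference of 0.53 (SE 2.91, edgeR adjusted p = 0.986), and the interaction was not called (12.76, SE 4.60, edgeR adjusted p = 0.324). KO day 39 replicate 2, at 7 counts, lay close to the KO libraries of day 0. Irf1, an interferon-induced activator of class I genes, had 47.7, 0 and 43.2 CPM for KO at day 0 and 232 and 785 for WT at day 0. At day 39 it had 918, 225 and 430 CPM in KO and 156, 331 and 663 in WT. Its KO minus WT log2 difference was -4.07 (SE 2.45, edgeR adjusted p = 0.381) at day 0 and 0.45 (SE 2.09, edgeR adjusted p = 1) at day 39. Irf8, a myeloid transcription factor, had 0 counts in KO day 0 replicate 2 and up to 4866 elsewhere. Socs3, a feedback inhibitor of cytokine signalling, was read in every library, with 462, 185 and 292 CPM for KO at day 0 and 2453 and 1721 for WT at day 0. Its day 39 libraries had 161, 558 and 1249 CPM in KO and 570, 1182 and 1186 in WT. The log2 difference of Socs3 was -2.74 (SE 1.39, edgeR adjusted p = 0.381) at day 0 and -0.58 (SE 1.24, edgeR adjusted p = 0.995) at day 39. For both Irf1 and Socs3 every KO library lay below both WT libraries at day 0, as for 5.25% of tested genes, and the groups overlapped at day 39.

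**Figure D5:**
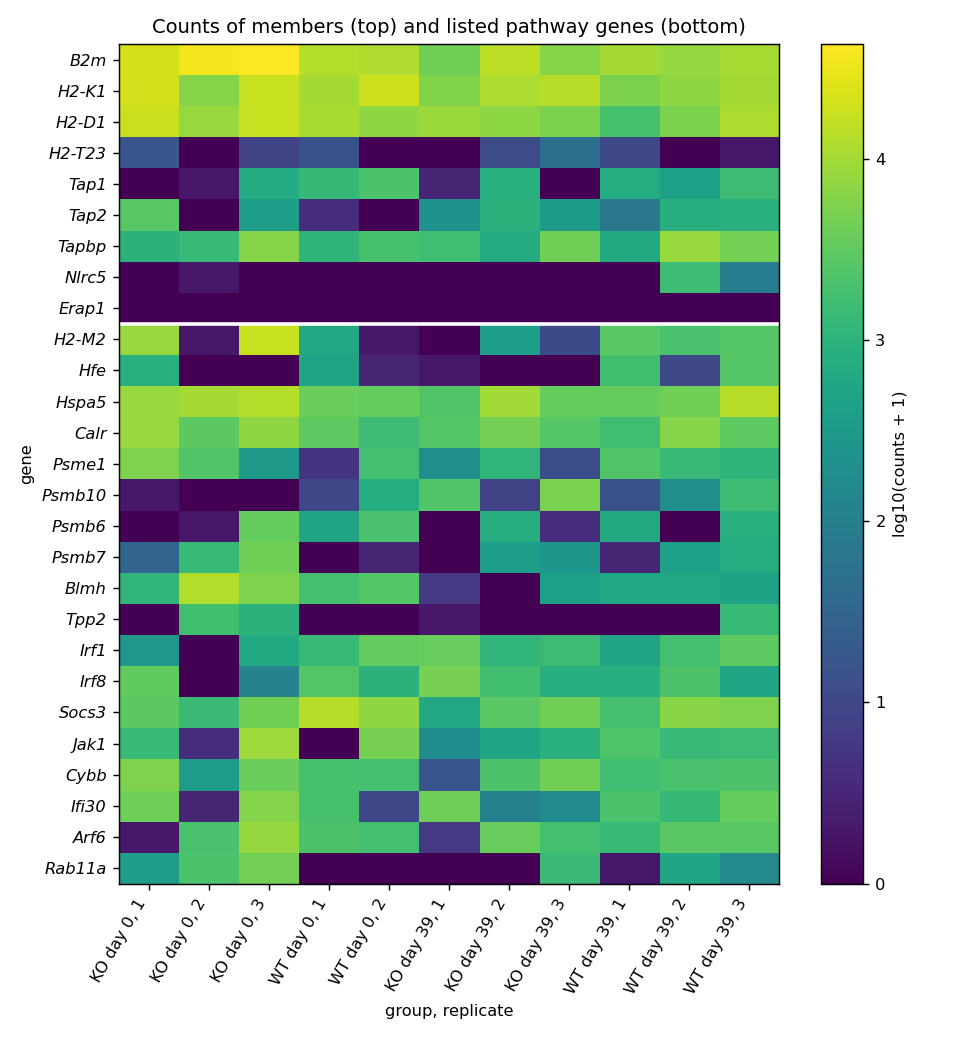
Log10 of counts plus 1 for the 9 members (above the white line) and the 18 named genes of the pathway lists (below it) in each library. The rows of B2m, H2-K1, H2-D1, Tapbp, Hspa5, Calr and Socs3 are filled throughout, while most other rows switch between high counts and 0 within a group.

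The genes whose CPM was most like that of B2m over the 11 libraries by Spearman's rho were Tmem184c (0.907), Map3k7 (0.887), Ddx41 (0.887), Tmem43 (0.868) and Snx6 (0.845). They had over 10 counts in 2, 2, 3, 2 and 7 libraries, so for all but Snx6 most of the ranks compared were of counts near 0, and no likeness is read from these. Of the 6986 other tested genes, H2-T23 ranked 1797, H2-K1 3214, Tap1 3835, Nlrc5 4559, H2-D1 4679, Tap2 4864 and Tapbp 6959, the last with a rho of -0.755.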

How the data were processed

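RNA of sorted colon macrophages was made into 3′ libraries with a Lexogen QuantSeq kit from 500 ng of RNA, per the labels' protocols. Values were used as deposited: each file gives raw counts, in whole numbers, for 1 library. The submitters' processing notes name Bowtie2, edgeR and the human build hg19 for these mouse libraries, with no role; strand setting and use of molecular identifiers are not given in the sources used here. Titles set the groups; column headers read day 35 where titles read day 39, and 3 in place of 2 for a WT library of day 0.

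Counts were filtered (filterByExpr), scaled by TMM and fitted with edgeR 4.0.16 in R 4.3.3 (quasi-likelihood, robust, 1 coefficient per group, all 11 libraries), with two-sided tests and Benjamini-Hochberg adjustment over 6987 genes. SE is the log2 difference over the square root of F. The spread that edgeR estimated gene by gene followed the trend with abundance. Its coefficient of variation for B2m was 1.44, against 0.125 to 0.466 for CPM within its groups. The quasi-likelihood tests do not use that gene-wise value, and the width of the B2m intervals was not traced to a cause. CPM used TMM-scaled totals. DESeq2 1.42.0, limma-voom (limma 3.58.1), other scalings, filters and samples were alternatives. All members were named. Of each pathway list, the 2 genes with the highest mean CPM were shown in the plot of counts by gene and library. Only some of these were described in the text: H2-M2, Hspa5, Calr, Psmb10, Irf1, Irf8 and Socs3. No rule was set for that choice. Hfe, Psme1, Psmb6, Psmb7, Blmh, Tpp2, Jak1, Cybb, Ifi30, Arf6 and Rab11a were plotted and not described. Further heavy chain rows, overlapping genes and the detection patterns of Tap1 and Tap2 were chosen after their values were seen. The motif letters were changed after the windows were seen. Members and lists were chosen with earlier results of these data known.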

Additional observations from a re-analysis of the deposited data

How the results depend on the processing

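In every refit other than DESeq2, 0 members were called in each comparison; the smallest adjusted p of a member without DESeq2 was 0.121. DESeq2 called 1 member for KO against WT at day 0, 1 at day 39 and 2 between the days in WT, and 0 in the other comparisons. All-gene calls were 1, 2, 1, 11, 21 and 0 in edgeR and up to 1241, 555, 1178, 1144, 1215 and 934 with DESeq2; the other settings gave at most 166, 32, 164, 193, 192 and 13, and leaving out 1 library gave 0 to 5, 0 to 2, 0 to 1, 5 to 15, 1 to 62 and 0 to 8. The cause was not tested. Of 1048 member refits under the settings not added later, 56 had the other sign and none of these was called. Counts that come and go between libraries and groups of 2 or 3 limit every comparison.

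The sign turned under these settings, in log2. Upper-quartile scaling gave B2m -1.39 at day 0 and 1.09 for the interaction, Tapbp -0.42 between the days in WT and 1.60 for the interaction, and Tap1 -0.41 for the mean of both labels. limma-voom gave Nlrc5 -0.29 at day 0 and 0.55 between the days in KO, Tap2 0.16 at day 39 and 3.52 between the days in KO, H2-D1 0.288 between the days in KO (-0.0021 in edgeR), H2-T23 0.0363 between the days in WT and H2-K1 0.11 for the mean of both labels. DESeq2 gave Nlrc5 -0.0565 at day 0. Without the KO libraries holding Ptger4 reads, Tap2 was -3.51 at day 0, 12.2 between the days in KO and 3.50 for the interaction, H2-D1 was 0.734 between the days in KO, and H2-K1 was 0.15 and H2-D1 0.13 for the mean of both labels. KO day 0 was then 1 library, assumed to vary like the other groups, with 0 Tap2 counts against 3 and 0 for WT at day 0, so these Tap2 signs rest on values at the floor; Tap1 at day 0 was -11.3 (edgeR adjusted p = 0.853). Thinning to the smallest library gave Tapbp 0.0144 for the interaction and H2-D1 0.2 between the days in KO, and the added exact permutation test H2-K1 0.0814. Leaving out 1 library at a time gave, at day 0, Tapbp -1.17 to 0.545, H2-K1 -1.7 to 0.0488, H2-D1 -0.74 to 0.0387 and H2-T23 -2.17 to 5.68; at day 39, Tap2 -0.698 to 0.432, H2-D1 -0.166 to 1.16 and B2m -0.67 to 0.0284; between the days in WT, H2-T23 -3.4 to 5.55 and B2m -0.47 to 0.0512; in KO, H2-D1 -0.322 to 0.611, Tap1 -5.78 to 9.38 and Tap2 -1.08 to 3.19; for the mean of both labels, H2-K1 -0.571 to 0.282, Tap1 -3.29 to 4.27, H2-D1 -0.647 to 0.0734 and H2-T23 -0.542 to 3.85; and for the interaction, Tapbp -1.3 to 0.48, Tap1 -4.99 to 10.2 and H2-T23 -3.4 to 5.73.

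Whether replicate numbers, taken from the titles, pair the libraries cannot be settled by the check made. Deviations of libraries with the same number (15 pairs) correlated at -0.0156 to 0.0685, those with other numbers (30 pairs) at -0.0685 to 0.0439. By title, 6 of 11 libraries were closest to their own number, and how many would be so by chance was not worked out. Deviations of the 2 WT day 0 libraries are exact opposites, and some ends of these ranges come from them. With the title number as a replicate block, 0 members were called, all-gene calls were 0, 1, 0, 12, 7 and 0, and the sign turned for H2-T23 at day 0 (0.131), H2-D1 (0.0324) and Tap2 (1.41) between the days in KO and Tapbp for the interaction (0.211). Column headers give 1 WT library of day 0 the number 3 in place of 2. By header number, an alternative added after seeing the data, same-number correlations were -0.0156 to 0.0685 and others -0.0685 to 0.0308, with 7 of 11 libraries closest to their own number. With the header number as a replicate block, 0 members were called, all-gene calls were 0, 1, 2, 12, 13 and 0, and the sign turned for H2-D1 (0.0314), H2-T23 (0.983) and Nlrc5 (-0.442) at day 0, H2-T23 between the days in WT (0.54) and H2-D1 (0.0498) and Tap2 (1.22) between the days in KO.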
